A study of Mus musculus with 8 samples.

Results

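Interferon-stimulated genes are described here across 8 microarrays of mouse RNA, in 4 groups of 2. The members were chosen by name, with earlier results of these data known. For this, 42 genes known as targets of interferon were listed. Every probe set whose platform annotation gave exactly 1 of these symbols was taken. This found 40 of the 42 genes, with 65 probe sets, among 18194 genes named in the same way. Isg15, the ubiquitin-like modifier, had a probe set annotated to several symbols and Ifi44 was not named in the annotation, so neither has a value. Of the 40 genes, 36 lay above a filter on low signal and were among the 13174 genes tested.

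The groups were FGF2 with U0126, FGF2 with SB202190, FGF2 alone and vehicle. The labels give the source as cerebral cortex, and the title of the series speaks of an astroglial programme. FGF2 is fibroblast growth factor 2, U0126 inhibits MEK, the kinase that activates ERK, and SB202190 inhibits the p38 kinase. Every group other than vehicle received FGF2. The treatment type of SB202190 replicate 2 is labelled acclimatization, where the 7 other labels have wait, and the array was kept in its group. Strain, age, genotype, dose, duration and whether the RNA came from cultured cells or from tissue are not given in the labels, and neither is whether replicates were separate cultures or animals. The p-values thus reflect the spread among these arrays alone, and that spread may be technical. Having 2 arrays per group limits the precision of every value.

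As background, interferons are secreted when cells sense foreign or misplaced nucleic acid. Type I interferons bind a receptor whose kinases activate STAT2, which joins IRF9 in a complex, ISGF3, that binds the interferon-stimulated response element, whereas interferon gamma acts mainly through gamma-activated sites. The induced genes encode sensors, antiviral proteins and regulators of the pathway itself, and cells without infection keep a low tonic expression of many of them. Astrocytes are among the brain cells that make and answer interferon.

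Both elements have a short core sequence, and the first of them was common in the promoters of the members. In RefSeq windows of GRCm38.p6, from 250 bases before to 50 bases after each annotated start, 31 of the 42 members had a window. The response element core GAAANNGAAA, searched on both strands, was present in 15 of the 31 (48.4%), against 3.99% of 27025 genes with a window. The gamma-activated core TTCNNNGAA, which reads the same on both strands, was in 9 of 31 (29.0%), against 9.55% of genes. A match is a run of letters and was not tested as a binding site. The 180 bases before the start are printed for 5 members chosen among those that hold a match before the start: Ifit3, Ifit1, Gbp2 and Bst2 were called lower with FGF2, and Rsad2 was not. The window of Cmpk2, which had the lowest log2 change with FGF2 among the tested members, holds no match to either core. The stretches run in the direction of the gene, with each match to GAAANNGAAA or its other strand in capitals (Ifit3 chr19:34583349-34583528 on the + strand, Ifit1 chr19:34640709-34640888 on the + strand, Gbp2 chr3:142620483-142620662 on the + strand, Bst2 chr8:71537473-71537652 on the - strand and Rsad2 chr12:26456453-26456632 on the - strand).
Ifit3: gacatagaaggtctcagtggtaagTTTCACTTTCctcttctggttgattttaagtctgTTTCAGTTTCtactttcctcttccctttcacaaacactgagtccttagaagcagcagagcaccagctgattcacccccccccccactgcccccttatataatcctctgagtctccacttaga
Ifit1: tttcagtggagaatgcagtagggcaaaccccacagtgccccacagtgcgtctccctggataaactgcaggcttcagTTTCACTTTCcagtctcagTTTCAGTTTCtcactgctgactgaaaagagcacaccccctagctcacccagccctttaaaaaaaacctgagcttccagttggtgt
Gbp2: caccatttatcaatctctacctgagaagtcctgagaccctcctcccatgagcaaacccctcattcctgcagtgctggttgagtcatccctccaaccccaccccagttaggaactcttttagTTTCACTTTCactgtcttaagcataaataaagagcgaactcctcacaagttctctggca
Bst2: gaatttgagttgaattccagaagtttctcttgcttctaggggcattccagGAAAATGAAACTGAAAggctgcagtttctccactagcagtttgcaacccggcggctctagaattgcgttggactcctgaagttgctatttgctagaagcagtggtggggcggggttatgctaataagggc
Rsad2: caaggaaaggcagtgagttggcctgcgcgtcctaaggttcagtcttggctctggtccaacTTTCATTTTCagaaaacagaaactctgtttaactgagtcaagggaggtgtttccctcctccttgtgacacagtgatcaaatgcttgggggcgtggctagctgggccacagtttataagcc
Ifit3 and Ifit1 each hold a pair of separate matches, Bst2 a pair that overlap, and Gbp2 and Rsad2 a single match. In Bst2 the pair runs over bases -130 to -115 from the start, and a gamma-activated core overlaps it. In Gbp2 the match lies closer to the start, at bases -59 to -50.

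**Figure D1:**
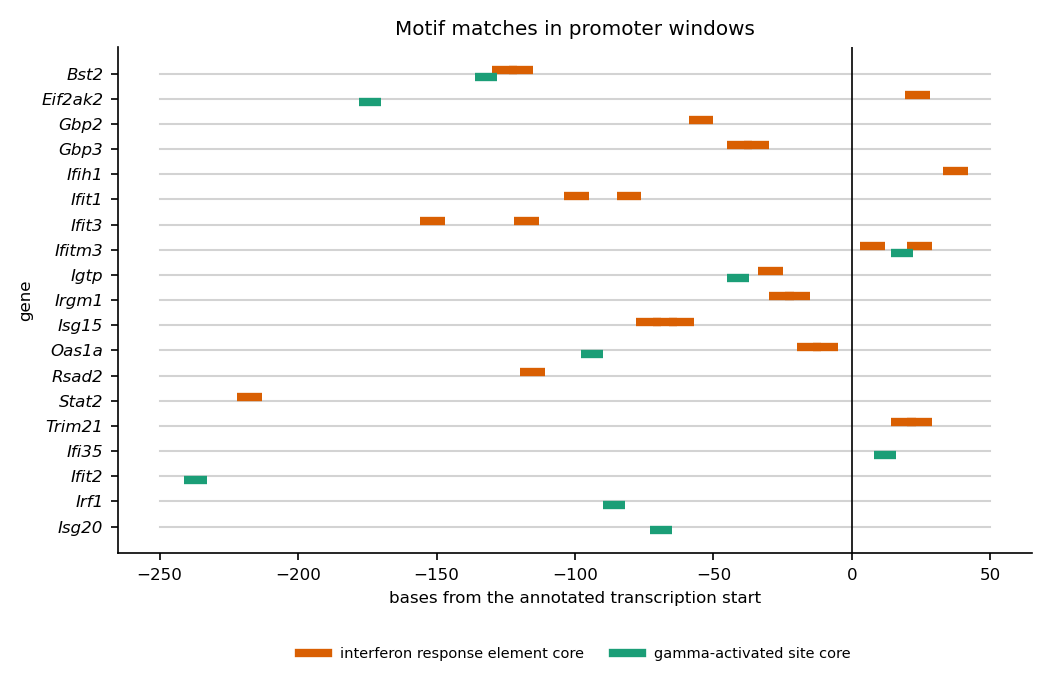
Position of each motif match (bars) in the promoter windows of the 19 members that hold one, in bases from the annotated transcription start on the x axis, one gene per row, with grey lines for the window searched. Response element cores (orange) are in 15 members and gamma-activated cores (green) in 9, and both occur in Bst2, Eif2ak2, Ifitm3, Igtp and Oas1a.

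The arrays were alike in scaling and correlation, but the vehicle arrays had the highest medians. Each had been scaled by the authors to a trimmed mean of 150.001. Medians were 27.8 and 26.6 on the vehicle arrays and ran from 22.3 to 24.3 on the arrays that received FGF2. Correlations over the tested genes were 0.980 to 0.984 between replicates and 0.947 to 0.981 between groups. FGF2 replicate 2 had the highest control transcripts (cre 11087, against 8328 to 8988 on the 7 other arrays). The source label was checked against markers. Above the filter were all 10 astrocyte markers, 10 of 12 meningeal and pericyte, 8 of 10 ependymal and choroid, 6 of 9 oligodendrocyte lineage, 6 of 10 neuronal, 7 of 15 microglial and 4 of 8 endothelial markers. Some markers of these lists were below a signal of 20 on every array. They were the neuronal genes Snap25, Gad1 and Slc17a7, the oligodendrocyte genes Mog, Mag and Gpr17 and the microglial genes Cx3cr1, Aif1, Itgam and Ptprc. The endothelial genes Pecam1, Cldn5 and Tek and the ependymal and choroid genes Kl and Kcne2 were also below it.

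With FGF2 most of the tested members were lower. Changes are differences of log2(signal + 1.77) after quantile normalization, and called means an adjusted p under 0.05 in limma over all 13174 genes. Of 36 tested members, 27 (75.0%) fell and 0 rose, against 37.9% of all 13174 genes called in either direction, 19.0% lower and 18.9% higher. The share was smaller in a further list of interferon-stimulated genes, where 15 of 43 tested (34.9%) fell, 3 rose and 25 were not called. The median log2 change was -0.57 over the members and -0.00 over all genes. Both FGF2 arrays lay below both vehicle arrays in 33 of 36 members, against 37.3% of all genes. Of the 27, 6 were at least 2-fold lower (Cmpk2, Ifit3, Ifit1, Iigp1, Gbp2 and Gbp3), a size reached by 4.33% of all genes. In bulk RNA, fewer cells that express these genes and less of their RNA per cell cannot be told apart.

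**Figure D2:**
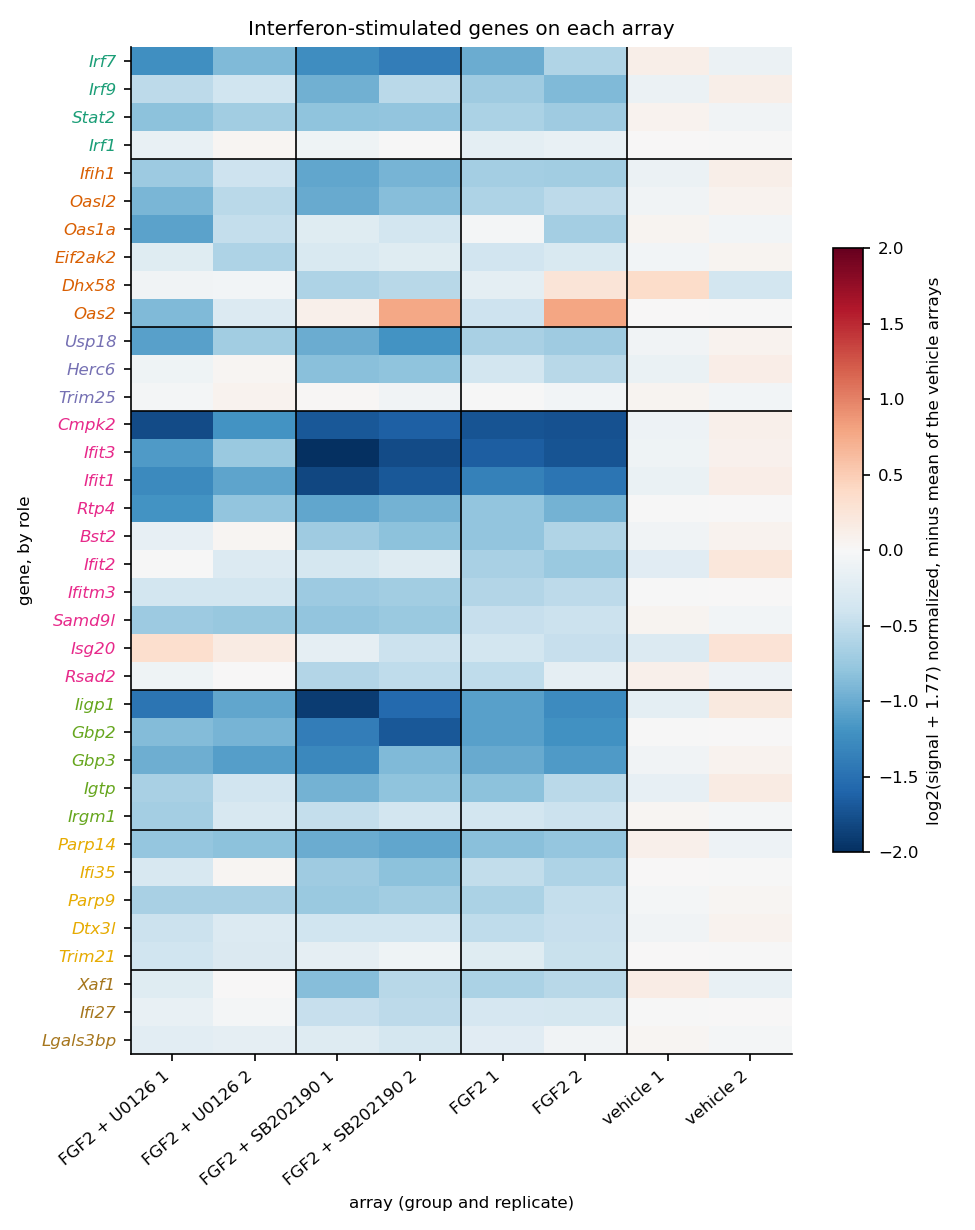
Normalized log2 level of each of the 36 tested members on each array, minus the mean of the vehicle arrays, with genes in rows grouped by role and blue for lower. The FGF2 columns hold 36 and 34 members below the vehicle mean, and the FGF2 with U0126, FGF2 with SB202190 and FGF2 columns are blue in most rows.

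The decrease was seen on each array on its own. The median of the members' log2 levels, each taken relative to its vehicle mean, was -0.65 and -0.39 on the FGF2 with U0126 arrays, -0.76 and -0.72 with SB202190, -0.62 and -0.56 with FGF2 alone, and -0.01 and 0.01 on the vehicle arrays. The same median over all tested genes was between -0.00 and 0.02 on every array. U0126 replicate 2 thus stood closest to vehicle of the 6 arrays that received FGF2.

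The transcription factors that carry the interferon signal were part of this decrease. Irf9, the DNA-binding part of ISGF3, had signals of 213 and 186 with FGF2, against 325 and 377 with vehicle, a log2 change of -0.80 ± 0.14 (SE) with adjusted p = 5.13e-04 (limma). Stat2, its partner, had 105 and 97.1 with FGF2 and 176 and 157 with vehicle (log2 change -0.67, adjusted p = 0.00184). Irf7, which amplifies the induction of type I interferon, had 62.1 and 80.6 with FGF2 and 140.0 and 117 with vehicle (-0.80, adjusted p = 0.00708). In all 3 genes the groups did not overlap. Irf1, a factor that interferon gamma induces strongly, was not called, at 211 and 216 with FGF2 and 248 and 240.4 with vehicle, a log2 change of -0.17 with a 95% interval of -0.39 to 0.06.

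Among the sensors of RNA and DNA, 2 of 6 tested members fell. Ifih1, the long double-stranded RNA sensor MDA5, had 239 and 235 with FGF2 and 353 and 418 with vehicle (log2 change -0.68 ± 0.12 SE, adjusted p = 6.57e-04, limma). Oasl2, of the oligoadenylate synthetase family that activates RNase L, had 348 and 372 with FGF2 and 504 and 553 with vehicle (-0.57, adjusted p = 0.00185). For both genes every FGF2 value was below every vehicle value. Eif2ak2, the kinase PKR that halts translation, had a log2 change of -0.34 and an adjusted p of 0.0559, and Oas1a one of -0.36 and 0.227. Dhx58, the sensor regulator LGP2, overlapped between the groups at 28.8 and 39.8 with FGF2 and 49.1 and 28.6 with vehicle, as did the dim Oas2, at 11.7 and 28.6 with FGF2 and 19.2 and 18.4 with vehicle.

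Zbp1, a sensor of Z-form nucleic acid that can trigger cell death, was left out by the filter because its mean over all 8 arrays was low. Its signal was 2.86 and 3.39 with FGF2, against 38.9 and 48.4 with vehicle. On the arrays with an inhibitor it was 8.48 and 14.8 with U0126 and 4.46 and 3.62 with SB202190. In this probe set the groups are thus separated, with vehicle far above the rest. Another probe set of Zbp1, also below the filter, had 5.60 and 1.18 with FGF2 and 9.01 and 26.4 with vehicle. It had 23.2 and 14.7 with U0126 and 2.56 and 12.4 with SB202190, so vehicle overlapped both inhibitor groups there. No fold change is given, because the FGF2 signals lay below the filter and its size would depend on the pseudocount. The other untested members, Mx1, Mx2 and Sp100, had signals of 0.867 to 28.0 across the arrays.

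In the ISG15 system, which attaches a ubiquitin-like tag to proteins, the protease and a ligase fell. Usp18, which removes the tag and also damps signalling at the interferon receptor, had 245 and 233 with FGF2 and 366 and 403 with vehicle (log2 change -0.68 ± 0.13 SE, adjusted p = 0.00114, limma). Herc6, the ligase that attaches it in mice, had 166 and 145 with FGF2 and 202 and 238 with vehicle (-0.46, adjusted p = 0.0120). In neither gene did the groups overlap. Trim25, a ubiquitin ligase of the RNA sensor RIG-I, had nearly the same signals in both groups, 523 and 501 with FGF2 and 532 and 498 with vehicle, and an interval of -0.21 to 0.14.

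The antiviral effectors held the largest changes, and 8 of 10 tested members fell. Cmpk2, a mitochondrial nucleotide kinase, had signals of 106 and 103 with FGF2, against 333 and 378 with vehicle (log2 change -1.73 ± 0.17 SE, adjusted p = 3.88e-06, limma). Ifit3 had 799 and 764 with FGF2 and 2256 and 2600.3 with vehicle (-1.69 ± 0.12, adjusted p = 2.00e-07). Ifit1 had 270.2 and 249 with FGF2 and 619 and 745 with vehicle (-1.41 ± 0.11, adjusted p = 6.33e-07). The IFIT proteins bind viral RNA or one another in a complex that blocks its translation, and the signals of Ifit3 and Ifit1 on both FGF2 arrays were well below those on either vehicle array. Their relative Ifit2 had a smaller change, with 374 and 349 under FGF2 and 491 and 672 under vehicle (-0.69, adjusted p = 9.43e-04).

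Effectors that act at membranes fell as well. Bst2, the tether that holds budding viruses at the cell surface, had 418 and 472 with FGF2 and 666 and 742 with vehicle (log2 change -0.69 ± 0.09 SE, adjusted p = 6.94e-05, limma). Ifitm3, which blocks fusion of viruses with endosomes, had 3920 and 4270.1 with FGF2 and 5125 and 5282 with vehicle (-0.56 ± 0.04, adjusted p = 5.99e-07). Rtp4, a receptor chaperone that interferon induces, had 589 and 527 with FGF2 and 987 and 1009 with vehicle (-0.87, adjusted p = 3.46e-05). None of these groups overlapped. Samd9l, a restriction factor of poxviruses, had 254 and 261 with FGF2 and 364 and 339 with vehicle (-0.45, adjusted p = 0.00225). Rsad2, whose product viperin makes a chain-terminating nucleotide, was not called (142 and 178 with FGF2, 222 and 190.4 with vehicle; -0.35, adjusted p = 0.0579), nor was the exonuclease gene Isg20 (-0.42, adjusted p = 0.186).

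All 5 tested GTPases fell. Gbp2, a guanylate-binding protein, had 290.0 and 263 with FGF2 and 602 and 606 with vehicle (log2 change -1.15 ± 0.11 SE, adjusted p = 2.90e-06, limma). Gbp3 of the same family had 113 and 103 with FGF2 and 223 and 241 with vehicle (-1.07, adjusted p = 1.02e-04). These proteins assemble on the vacuoles of intracellular pathogens, as do proteins of the other family here. Of the immunity-related GTPases, Iigp1 had 119 and 104 with FGF2 and 228 and 290 with vehicle (-1.18, adjusted p = 2.30e-04). Igtp had 289 and 349 with FGF2 and 451 and 561 with vehicle (-0.68), and Irgm1 had 372 and 354 with FGF2 and 488 and 462 with vehicle (-0.40). The 2 FGF2 arrays were below both vehicle arrays in each of the 5 genes.

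All 5 tested members of the PARP and nuclear group also fell, with a median log2 change of -0.55, where the GTPases had -1.07. Parp14, an ADP-ribosyltransferase, had 69.0 and 70.8 with FGF2 and 139 and 117 with vehicle (log2 change -0.80 ± 0.17 SE, adjusted p = 0.00184, limma). Parp9 and its ubiquitin ligase partner Dtx3l had changes of -0.55 (223 and 249 with FGF2, 339 and 356 with vehicle) and -0.49 (141 and 145 with FGF2, 197 and 213 with vehicle). Ifi35, a leucine zipper protein, had 740 and 674 with FGF2 and 1022 and 1016 with vehicle (-0.56, adjusted p = 5.33e-04). Trim21, the cytosolic antibody receptor, was at the edge of the threshold, with 139 and 119 under FGF2 and 171 and 165 under vehicle (-0.35, adjusted p = 0.0471), and its call was lost in 7 of 8 fits that left out 1 array.

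Of the remaining members, Xaf1, an antagonist of the apoptosis inhibitor XIAP, had 266 and 280.3 with FGF2 and 455 and 371 with vehicle (log2 change -0.60 ± 0.13 SE, adjusted p = 0.00248, limma). Ifi27 had 1480.0 and 1483 with FGF2 and 1760.0 and 1841 with vehicle (-0.34, adjusted p = 5.38e-04). Both were lower on each FGF2 array. Lgals3bp, a secreted glycoprotein that binds galectins, was not called, with 767 and 863 under FGF2 and 896 and 865 under vehicle (-0.15, adjusted p = 0.140).

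**Figure D3:**
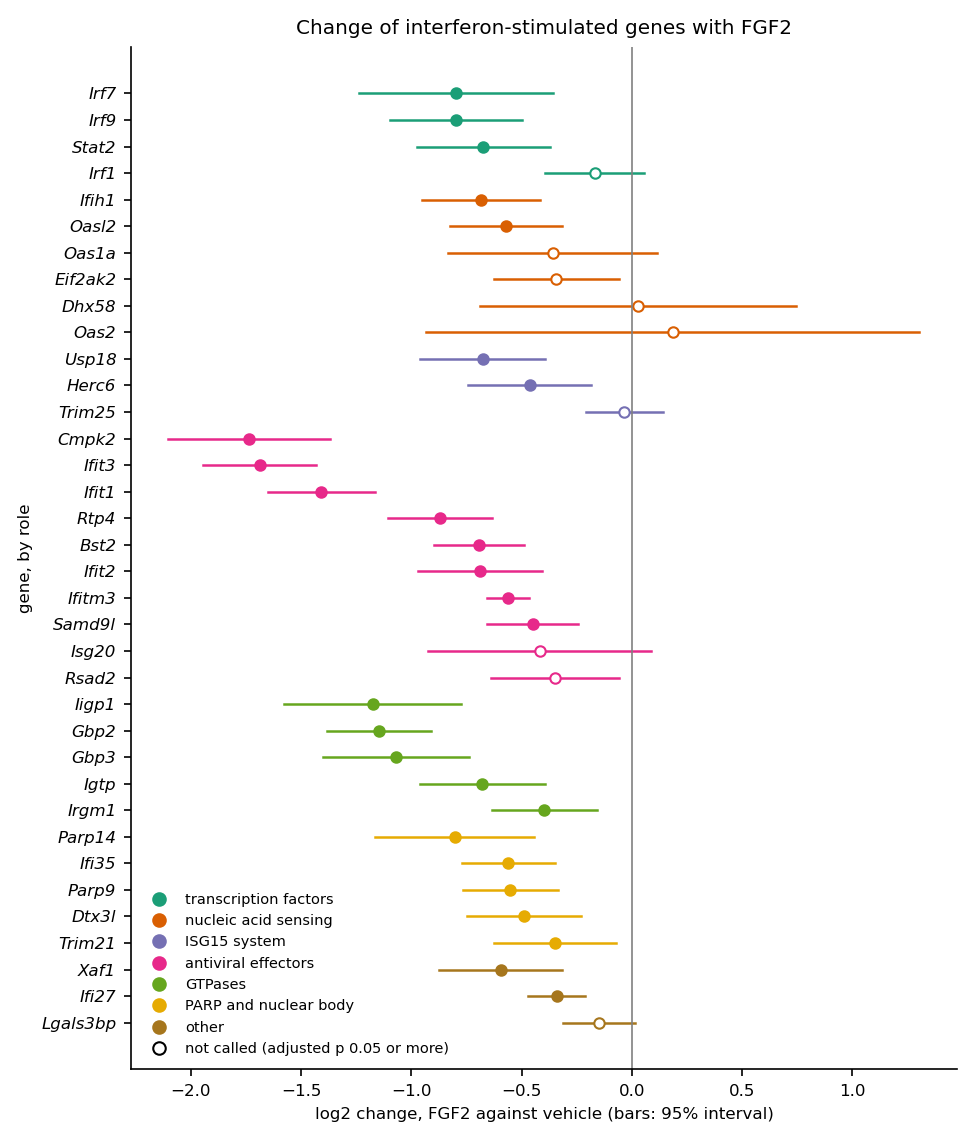
Log2 change of each tested member, FGF2 against vehicle (x axis), with 95% intervals as bars, genes in rows and colours by role. Filled points are the 27 called members, from -1.73 for Cmpk2 to -0.34 for Ifi27, and the 9 open points are the members that were not called.

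Across settings, 20 to 29 members were called lower with FGF2 and 0 higher, and 16 of the 27 kept their call in all 8 fits that left out 1 array and in all 15 other settings. The smallest count came from centring each array on its median in place of quantile normalization, which moved the median change of all genes to 0.16 and turned a split of 2489 higher and 2502 lower genes into 4018 and 1479. The median of the members was -0.36 under that centring. Markers of several cell types moved in the same comparison, and their part in the result was not tested. The summed signal of the 10 astrocyte markers was 11233 to 11422 with FGF2 and 21545 to 21902 with vehicle, and all 10 were called lower. The sum of 12 meningeal and pericyte markers was 6771 to 7236 with FGF2 and 12345 to 12597 with vehicle (7 of 10 tested were lower), that of 10 ependymal and choroid markers 3725 to 4618 with FGF2 and 6655 to 6932 with vehicle (7 of 8 lower), and that of 8 endothelial markers 773 to 819 with FGF2 and 1284 to 1429 with vehicle (2 of 4 lower). The 9 oligodendrocyte lineage markers summed to 5403 to 5627 with FGF2 and 4288 to 4349.9 with vehicle (1 of 6 higher and 1 lower), and the 10 neuronal markers to 2407 to 2484 with FGF2 and 2297 to 2305 with vehicle (2 of 6 higher and 1 lower). The 15 microglial markers summed to 403 to 410 with FGF2 and 396 to 469 with vehicle, and 0 of their 7 tested genes were called. Of the 15, Cx3cr1, Aif1, Itgam and Ptprc were below 20 on all arrays.

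Adding the MEK inhibitor to FGF2 raised a few members and left most without a call. Against FGF2 alone, 8 of 36 members (22.2%) rose with U0126 and 1 fell, where 22.1% of all genes were called, 11.6% higher and 10.5% lower. The share of members called was thus near that of all genes. The median log2 change was 0.08 over the members and 0.03 over all genes. The members that rose came from the effectors, the ISG15 system, the PARP and nuclear group and the remaining genes, whereas none of the 15 tested transcription factors, sensors and GTPases was called.

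Ifit3 rose the most. Its signal was 1140.2 and 1496 with U0126 and FGF2, against 799 and 764 with FGF2 alone, a log2 change of 0.75 ± 0.12 (SE) with adjusted p = 5.87e-04 (limma). Bst2 had 646 and 747 with U0126 and FGF2 and 418 and 472 with FGF2 (0.63 ± 0.09, adjusted p = 4.17e-04). Both inhibitor arrays were above both FGF2 arrays for these genes, and of the 9 calls only these 2 were kept in all 8 fits that left out 1 array and in all 15 other settings. Bst2 is the member that also serves as a marker of plasmacytoid dendritic cells. Of that list of 10 lymphoid and plasmacytoid markers, 7 were under a signal of 20 on every array. These were Cd3e, Cd3g, Cd4, Nkg7, Ncr1, Ly6d and Ms4a1. The 3 tested markers, Bst2 included, had log2 changes of -0.42 to 0.63 with U0126 against FGF2, with a median of 0.62. Of these 3, only Bst2 itself was called higher, and 0 were called lower. Their part in the value of Bst2 was not tested.

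The other members that rose did so less firmly. Ifit2 had 579 and 484 with U0126 and FGF2 and 374 and 349 with FGF2 (log2 change 0.54, adjusted p = 0.00909, limma). Xaf1 had 353 and 421 with U0126 and FGF2 and 266 and 280.3 with FGF2 (0.48, adjusted p = 0.0171). Herc6 had 205 and 224 with U0126 and FGF2 and 166 and 145 with FGF2 (0.44, adjusted p = 0.0269). The groups did not overlap in these genes, nor in Ifi35 (829 and 1075 with U0126 and FGF2, 740 and 674 with FGF2; 0.42, adjusted p = 0.00808), Ifi27 (1654 and 1829 with U0126 and FGF2, 1480.0 and 1483 with FGF2; 0.25, adjusted p = 0.0102) and Ifitm3 (4483 and 4466 with U0126 and FGF2, 3920 and 4270.1 with FGF2; 0.20, adjusted p = 0.00631). Samd9l fell, with 214 and 208 under U0126 and FGF2 and 254 and 261 under FGF2 (-0.30, adjusted p = 0.0411).

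The count of 9 calls varied with the settings. It was lower when 1 array of this comparison was left out, which leaves 1 array in its group. Such fits cannot show whether the calls rest on the array left out. The count was 2 when the variance prior had no intensity trend. Of the members most reduced by FGF2, Cmpk2 had signals of 102 and 154 with U0126 and FGF2 and 106 and 103 with FGF2, a log2 change of 0.24 with an interval of -0.13 to 0.61. Ifit1 had 288 and 335 with U0126 and FGF2 (0.24, adjusted p = 0.149), and Gbp2 had 342 and 326 (0.25, adjusted p = 0.118). Gbp3, at 116 and 104 with U0126 and FGF2, overlapped the FGF2 arrays (0.03, interval -0.30 to 0.36). The astrocyte markers moved in the same comparison: their sum was 14736 to 14829 with U0126 and FGF2, against 11233 to 11422 with FGF2, and 8 of 10 were called higher. The ependymal and choroid markers summed to 4469 to 5644 with U0126 and FGF2 and 3725 to 4618 with FGF2 (5 of 8 higher), and the endothelial ones to 1567 to 1635 with U0126 and FGF2 and 773 to 819 with FGF2 (1 of 4 higher and 1 lower). The oligodendrocyte lineage markers summed to 3838 to 3947 with U0126 and FGF2 and 5403 to 5627 with FGF2 (3 of 6 lower), the neuronal ones to 1917 to 1925 with U0126 and FGF2 and 2407 to 2484 with FGF2 (2 of 6 lower), and the meningeal and pericyte ones to 6524 to 6600.0 with U0126 and FGF2 and 6771 to 7236 with FGF2 (1 of 10 higher and 3 lower). The microglial markers summed to 487 to 503 with U0126 and FGF2 and 403 to 410 with FGF2 (1 of 7 higher). The part of these markers in the members' values was not tested.

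**Figure D4:**
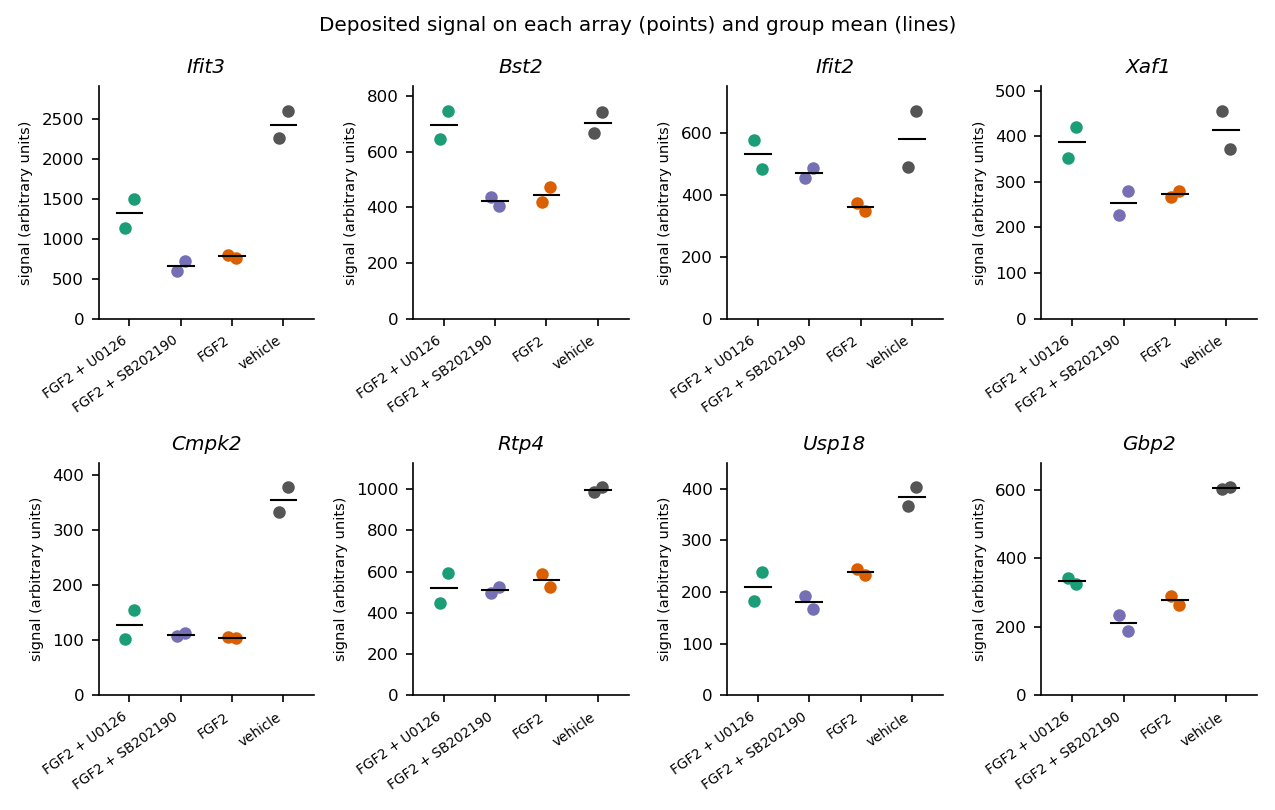
Deposited signal (y axis, linear, arbitrary units) of 8 members on each array, as points, with group means as lines, for FGF2 with U0126, FGF2 with SB202190, FGF2 and vehicle. In Ifit3, Bst2, Ifit2 and Xaf1 both U0126 arrays lie above both FGF2 arrays, in Cmpk2, Rtp4 and Usp18 these groups overlap, and vehicle is the highest group mean in every panel.

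The p38 inhibitor gave no call among the members. Against FGF2 alone, 0 of 36 members were called with SB202190 (limma), against 3.02% of all genes (1.70% lower and 1.32% higher), and 12 members had an unadjusted p under 0.05. Their changes ran from -0.61 for Dhx58 to 0.38 for Ifit2, with a median of -0.15 over the members and -0.00 over all genes. Both SB202190 arrays were below both FGF2 arrays in 19 members, against 25.8% of all genes, and above them in 6, against 23.1%. The members nearest the threshold were Gbp2, with 234 and 188 under SB202190 and FGF2 and 290.0 and 263 under FGF2 (log2 change -0.39, adjusted p = 0.0705), Samd9l (-0.32, adjusted p = 0.0948) and Ifitm3 (-0.15, adjusted p = 0.0984). Ifit3 had 597 and 722 with SB202190 and FGF2 and 799 and 764 with FGF2 (-0.25, interval -0.50 to 0.01). Without SB202190 replicate 1 the call of Gbp2 passed the threshold, and with only the 4 arrays of this comparison that of Ifit2 did.

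The inhibitors were then set against each other, in a comparison that shares no array with FGF2 against vehicle. Both comparisons came from the same fit and use the same estimate of each gene's spread, so their calls are not independent. With U0126 11 of 36 members (30.6%) were higher than with SB202190 and 0 lower, against 22.7% of all genes called, 12.4% higher and 10.3% lower. Ifit3 had 1140.2 and 1496 with U0126 and 597 and 722 with SB202190, a log2 difference of 1.00 ± 0.12 (SE), adjusted p = 5.71e-05 (limma). Herc6 had 205 and 224 with U0126 and 119 and 122 with SB202190 (0.80, adjusted p = 6.42e-04). Bst2 had 646 and 747 with U0126 and 439 and 405 with SB202190 (0.70, adjusted p = 1.58e-04). In each of these the U0126 arrays were both higher.

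The other differences were smaller, at 0.65 for Gbp2, 0.63 for Ifi35, 0.59 for Ifit1, 0.58 for Xaf1, 0.51 for Rsad2, 0.42 for Ifih1, 0.40 for Ifi27 and 0.34 for Ifitm3. Of the 11 members, 10 (90.9%) were among those called lower with FGF2 against vehicle, and they made up 37.0% of those 27. Of all 36 tested members, 75.0% were called lower with FGF2. The exception was Rsad2, with 193 and 205 under U0126 and 133 and 143 under SB202190. The 25 members that were not called here include Cmpk2 (0.17, interval -0.20 to 0.53), Gbp3 (0.04, interval -0.29 to 0.38) and Rtp4 (0.00, interval -0.23 to 0.24).

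**Figure D5:**
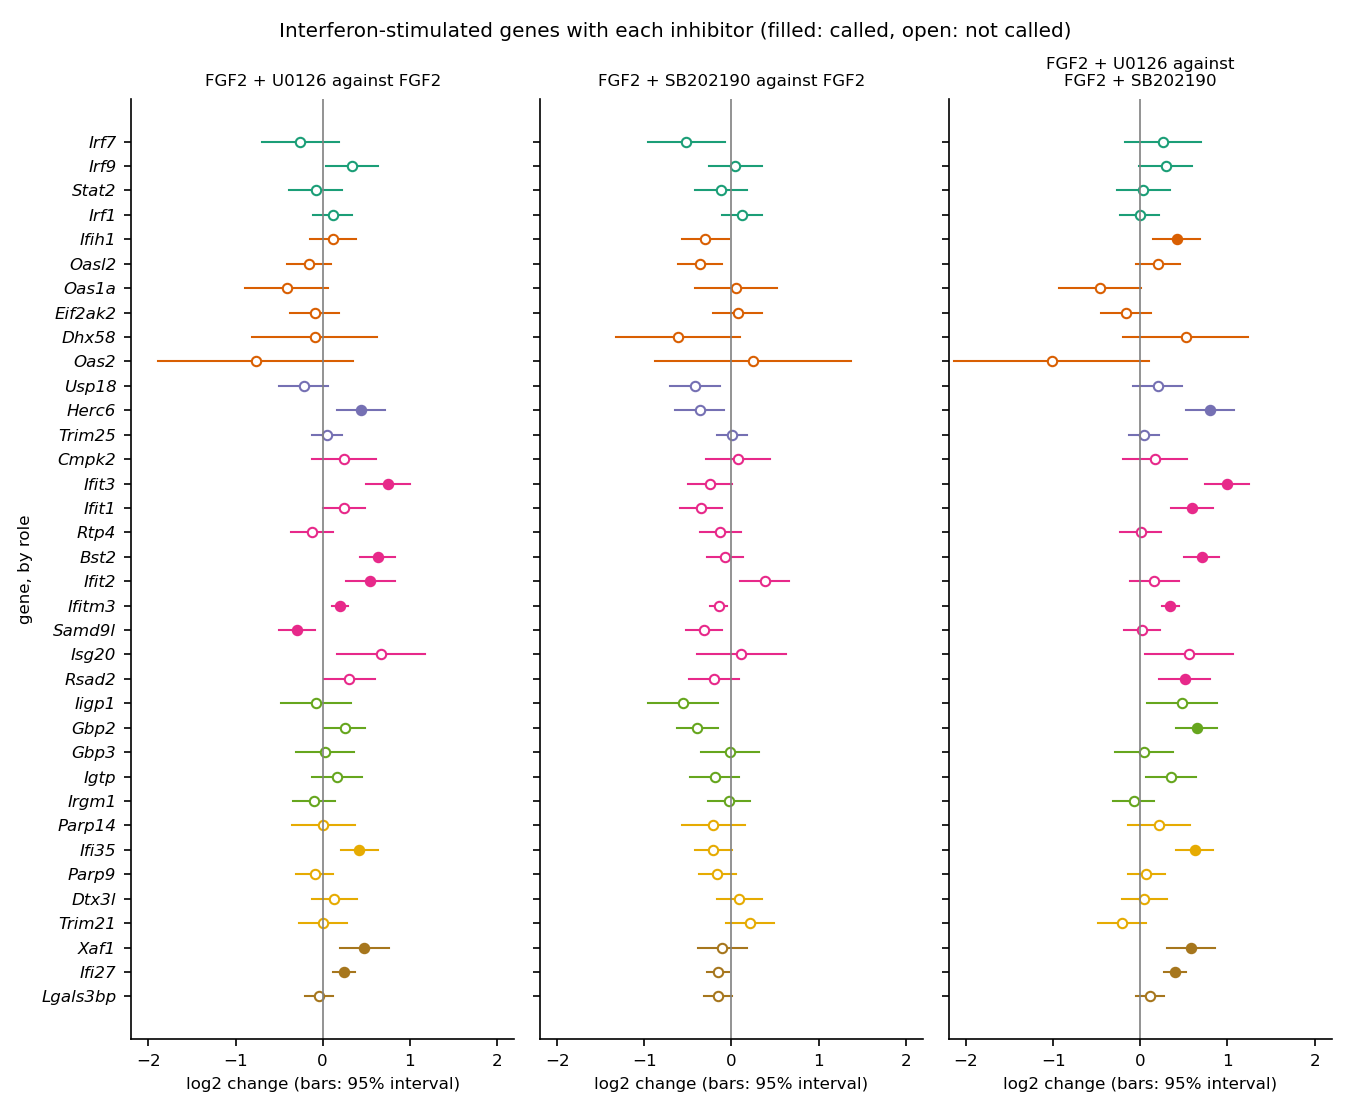
Log2 change of each tested member (x axes, with 95% intervals) for FGF2 with U0126 against FGF2, FGF2 with SB202190 against FGF2, and FGF2 with U0126 against FGF2 with SB202190, genes in rows by role and called members filled. There are 9 filled points in the left panel, 0 in the middle and 11 on the right.

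Against vehicle, both inhibitor groups still had most members lower. These comparisons share the vehicle arrays with the first, so the values are given side by side and not compared. With U0126 and FGF2 22 of 36 members fell and 0 rose (31.7% of all genes called, 15.0% lower and 16.7% higher), with a median of -0.51. With SB202190 and FGF2 27 fell and 0 rose (35.8% of all genes called, 17.8% lower and 18.0% higher), with a median of -0.76. Cmpk2 had changes against vehicle of -1.49 with U0126, -1.66 with SB202190 and -1.73 with FGF2 alone. For Ifit3 they were -0.94, -1.93 and -1.69 in the same order, and for Gbp2 -0.89, -1.54 and -1.15.

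Among members that were not called between U0126 with FGF2 and vehicle, Bst2 had 646 and 747 with U0126 and FGF2 and 666 and 742 with vehicle, a log2 change of -0.06 with an interval of -0.27 to 0.14. Herc6 had a change of -0.02 (interval -0.30 to 0.25), Ifi27 -0.10 (-0.23 to 0.03), Xaf1 -0.12 (-0.39 to 0.16), Ifi35 -0.14 (-0.35 to 0.07) and Ifit2 -0.15 (-0.43 to 0.14). These intervals all reach below 0, so a remaining decrease within them was not detectable with 2 arrays per group.

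Other probe sets of the same genes were compared in direction. In FGF2 against vehicle, 15 members had more than 1 probe set above the filter, all of one sign in 12 of them, and none had probe sets called in opposite directions. The exceptions were Ifi35, Rtp4 and Trim25. With U0126 against FGF2 the signs matched in 6 of the 15 only. For Ifi27 the other probe set had a log2 change of -0.03 with U0126 and -0.06 with FGF2, and for Ifi35 the others had -0.30 and -0.36 with U0126, none of them called. With FGF2 the others of Ifi35 had -0.10 and 0.24, also not called. The calls of both genes, in either comparison, thus rest on 1 probe set each. Xaf1 had a second probe set at -0.46 with FGF2 and -0.15 with U0126, neither called, so its rise with U0126 rests on 1 probe set too. All 4 probe sets of Herc6 had positive changes with U0126, from 0.25 to 0.79. A second probe set of Gbp2, of a kind that can bind several transcripts, had -0.74 with FGF2 (adjusted p = 2.78e-04) and -0.43 with U0126 (adjusted p = 0.0218, limma). That of Cmpk2 had -0.81 with FGF2 (adjusted p = 0.00353, limma) and -0.35 with U0126, the latter not called. In Cmpk2 and Gbp2 the decrease of at least 2-fold with FGF2 thus rests on 1 probe set each. With U0126 against SB202190 the signs matched in 7 of the 15. Of the members called there, Gbp2, Ifi35 and Xaf1 each had a probe set of the other sign, not called (-0.17, -0.16 and -0.24). A further probe set of Ifi35 had 0.31, also not called. All probe sets of Herc6, Ifi27 and Rsad2 above the filter were positive.

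Genes around the members in the pathway were taken from lists by role. Of the interferons themselves, 10 were named and 9 lay below the filter, with no shared direction. Both FGF2 arrays were below both vehicle arrays in Ifna1 and Ifnb1 (Ifnb1 6.01 and 6.28 with FGF2, 15.99 and 16.5 with vehicle). They were above them in Ifna4, Ifna11 and Ifng (Ifng 7.95 and 2.08 with FGF2, 1.69 and 1.95 with vehicle). In Ifna2, Ifna5, Ifna9 and Ifnab the groups overlapped. The one tested, Ifnz, fell with FGF2, with 29.8 and 40.5 against 78.1 and 61.1 with vehicle (log2 change -0.84, adjusted p = 0.0196, limma). Of 8 tested receptor chains and kinases, 2 rose with FGF2 and 1 fell, likewise near the 37.9% of all genes called. Il10rb, a receptor chain shared by interferon lambda and interleukin 10, had 422 and 422 with FGF2 and 286 and 273 with vehicle (0.59), Ifngr1 had a change of 0.27, and the kinase Jak2 one of -0.53.

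Of 6 other transcription factors of the pathway, only Stat3 was called with FGF2. This was 16.7% of them, where 19.0% of all genes were called lower. Stat3 had 797 and 817 with FGF2 and 1244 and 1135 with vehicle (log2 change -0.59, adjusted p = 2.05e-05, limma), and it fell further with U0126 (-0.42). Of 13 tested genes upstream, in nucleic acid sensing, 4 fell with FGF2 and 1 rose, a share near that of all genes called in this comparison (37.9%). Tlr3, the endosomal double-stranded RNA receptor, had 311 and 297 with FGF2 and 528 and 498 with vehicle (-0.77, adjusted p = 1.86e-05), and had 452 and 438 with U0126 and FGF2 (0.54, adjusted p = 9.00e-04). The kinase Ikbke had -1.05 with FGF2 and 0.96 with U0126, and the adaptor Myd88 -0.54 and 0.31. Of 10 inhibitors of the pathway, 2 fell with FGF2 and 0 rose. The share that fell was near the 19.0% of all genes called lower. Socs3 had 460.3 and 369 with FGF2 and 877 and 1062 with vehicle (-1.24), and Pias1 had a change of -0.57.

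A further list of 55 interferon-stimulated genes outside the 42 had 43 tested. With FGF2 15 fell and 3 rose, with a median of -0.31, where 19.0% of all genes were lower and 18.9% higher. Gbp6 had 228 and 241 with FGF2 and 588 and 650 with vehicle (log2 change -1.40, adjusted p = 1.14e-06, limma), and Irgm2 had -1.34. With U0126 against FGF2 3 rose and 2 fell, where 22.1% of all genes were called. Ifitm1, a relative of Ifitm3, fell further with U0126, to 187 and 206 against 407 and 363 with FGF2 (-0.97, adjusted p = 3.01e-05), whereas Ifitm3 rose. Csf1, a growth factor of macrophages and microglia, rose (0.75, adjusted p = 8.02e-06).

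The promoter matches were set beside these changes. Of 14 tested members with a GAAANNGAAA match, 11 fell with FGF2, with a median log2 change of -0.68. Of 14 whose window held none, 10 fell, with a median of -0.52. For the gamma-activated core TTCNNNGAA, 5 of 9 tested members with a match fell (median -0.56), and 16 of 19 without one (median -0.60). Among tested genes outside the 42, 24.7% of 365 with a GAAANNGAAA match were lower with FGF2, and 18.7% of 10222 without one. Of the 7 members that rose with U0126 and have a window, 3 held the match, and of the 21 other tested members with a window 11 did.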

How the data were processed

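Total RNA was measured on 8 Affymetrix arrays, 1 per sample. The deposited table gives linear intensity for 45101 probe sets, brought by the authors to a common trimmed mean, and the algorithm is not given in the sources used here. No detection calls were used. The annotation gave 34958 of the probe sets 1 symbol, 932 several and 9211 none, and only the first kind names genes. The members and lists were chosen with earlier results of these data known.

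A pseudocount of 1.77, the 10th percentile of all values, was added before log2, which understates changes of low signals, and quantile normalization followed. Each gene took its brightest probe set by mean. Genes under the 40th percentile (log2 3.83) were left out, and 13174 of 18194 remained. The fit was limma 3.58.1 in R 4.3.3 over all 8 arrays, moderated towards a trend with intensity (4 residual degrees of freedom, 8.99 from the prior). Tests were two-sided and adjusted by Benjamini-Hochberg in each of 6 comparisons. Printed signals are the deposited values. The procedure was tested on simulated data. Every member could be named, and signals per array are given for members called in FGF2 against vehicle or an inhibitor against FGF2, at most 8 per role. From each other list, genes with the smallest p were named, at most 4 per comparison. Promoter windows come from RefSeq (GRCm38.p6). The alternatives were other normalizations, pseudocounts, filters, variance priors, array weights, probe set rules and thresholds, fewer arrays in the fit, a replicate block and leaving out each array. Plots used Python 3.11.15.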

Additional observations from a re-analysis of the deposited data

How the results depend on the processing

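For U0126 with FGF2 against FGF2, the count of 9 members called was 2 without the trend in the variance prior and 5 at an adjusted p under 0.01, and 3 to 9 when 1 array was left out. For SB202190 with FGF2 against FGF2, the count of 0 was 1 with only the 4 arrays of the comparison and 3 at an adjusted p under 0.1, and 0 to 1 when 1 array was left out. Over all settings run, the counts were 20 to 29 for FGF2, 15 to 24 for U0126 with FGF2 and 23 to 28 for SB202190 with FGF2, each against vehicle, and 8 to 13 between the inhibitors. Centring on the median moved the median change of all genes to 0.19 for U0126 and 0.18 for SB202190 with FGF2 against vehicle. The splits of all genes were then 4030 higher and 1014 lower, and 4059 higher and 1437 lower, in place of 2196 and 1981, and 2377 and 2345.

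Ifi27 with U0126 against FGF2 turned to -0.031 without probe sets that can bind several transcripts, and ran from -0.046 to 0.25 when 1 array was left out, since another probe set then had the highest mean in 4 of 8 fits. Ifi35 turned to -0.082 when probe sets were averaged and to -0.30 without those that can bind several transcripts. Without these, Trim25 turned to -0.39 against FGF2 and -0.37 against SB202190. With the replicate number as a block, the counts in the order of the text (FGF2 against vehicle, U0126 and SB202190 against FGF2, U0126 and SB202190 against vehicle, and U0126 against SB202190) were 26, 8, 0, 22, 27 and 12. Deviations of same-numbered arrays had correlations of -0.026 to 0.034, so no effect shared by replicate number was seen. These values cannot tell whether the samples were paired by number. With 2 arrays per group, small changes of dim members such as Oas2 and Dhx58 were not detectable.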
